A study of Mus musculus with 12 samples.

Results

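The response of wild-type muscle stem cells to muscle injury was read from 4 of the 12 libraries in the series: 2 from uninjured muscle, called day 0 here, and 2 from muscle 7 days after injury. The libraries were taken by their labels, and all 30154 genes in the table of estimated counts were considered. Both groups came from wild-type C57BL/6J mice aged 2 to 3 months, and the cells were sorted by flow cytometry from 3 hind limb muscles (quadriceps, gastrocnemius and tibialis anterior). The labels give neither the kind of injury nor the sex of the mice, the sort markers or whether the libraries of a group came from different animals, so the p-values measure the spread between these libraries, which may be technical. The remaining libraries came from mice of the same strain and age with both Sestrin1 and Sestrin2 knocked out, which encode stress proteins that restrain the growth kinase mTORC1, or from day 21, where Sesn2 contradicts the genotype labels of 2 libraries; day 21 was kept out of the comparison. Those of the knockout at days 0 and 7, 2 of each, were fitted together with the wild-type libraries, which gave 8 libraries in the fit. Each group value below has n = 2.

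Muscle stem cells, also called satellite cells, lie between the muscle fibre and its sheath and express the transcription factor Pax7. At rest they do not divide. After injury they enter the cell cycle and turn on the myogenic factors Myf5 and Myod1, and their daughters then turn on Myog, leave the cycle, fuse and build new fibres with embryonic and neonatal myosins, while some cells return to rest. Cells taken out of solid muscle by enzymes also switch on immediate early and heat shock genes during the preparation, so that freshly sorted cells carry those transcripts at any day.

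The wild-type libraries held between 31568987 and 38950614 estimated counts and between 17483 and 18043 genes with counts. Replicates of a day correlated more closely (Pearson's r of log2 CPM, the counts scaled to library size, across genes was 0.983 at day 0 and 0.979 at day 7) than libraries of different days (0.894 to 0.898); genes are not independent replicates. Transcripts of Sesn2 were at 78.3 and 88.6 CPM at day 0 and 45.2 and 48.6 CPM at day 7 in wild type, against 5.66 and 7.26 CPM at day 0 and 2.37 and 1.96 CPM at day 7 in the knockout, so this gene fits the genotype labels of the 8 libraries. Sesn1 fits them less sharply, at 73.4 and 72.0 CPM at day 0 and 84.5 and 69.5 CPM at day 7 in wild type and 47.6 and 47.3 CPM at day 0 and 28.6 and 23.0 CPM at day 7 in the knockout. A large share of all genes differed between the days. Of 15672 genes with enough counts to test, 8456 (54.0%) were called, which means an adjusted p under 0.05 in edgeR's quasi-likelihood test with Benjamini-Hochberg adjustment over all genes tested. Of all genes tested, 27.9% (4367) were called higher at day 7 and 26.1% (4089) lower. With a change of at least 2-fold as well, 1725 genes (11.0%) were called higher and 2074 (13.2%) lower, and 844 and 855 were changed at least 4-fold. In 80.0% of genes every library of one day lay above both of the other, so separation of the days alone says little here. These percentages are the background against which the gene groups below are to be read.

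The split between higher and lower genes depends on the scale. In the counts, scaled for library size, 51.6% of the called genes were higher and the median log2 fold change of all genes tested was 0.01. In a limma fit of log2 TPM, 69.5% of called genes were higher and the median moved by 0.26. That fit divides by transcript length, applies no further scaling between libraries, uses another test and covers 13696 genes, and which of these moved the split was not tested. The medians of several gene groups close to 0 change sign in it. CPM values are used for the changes of single genes, and TPM wherever levels of different genes are summed or compared.

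**Figure D1:**
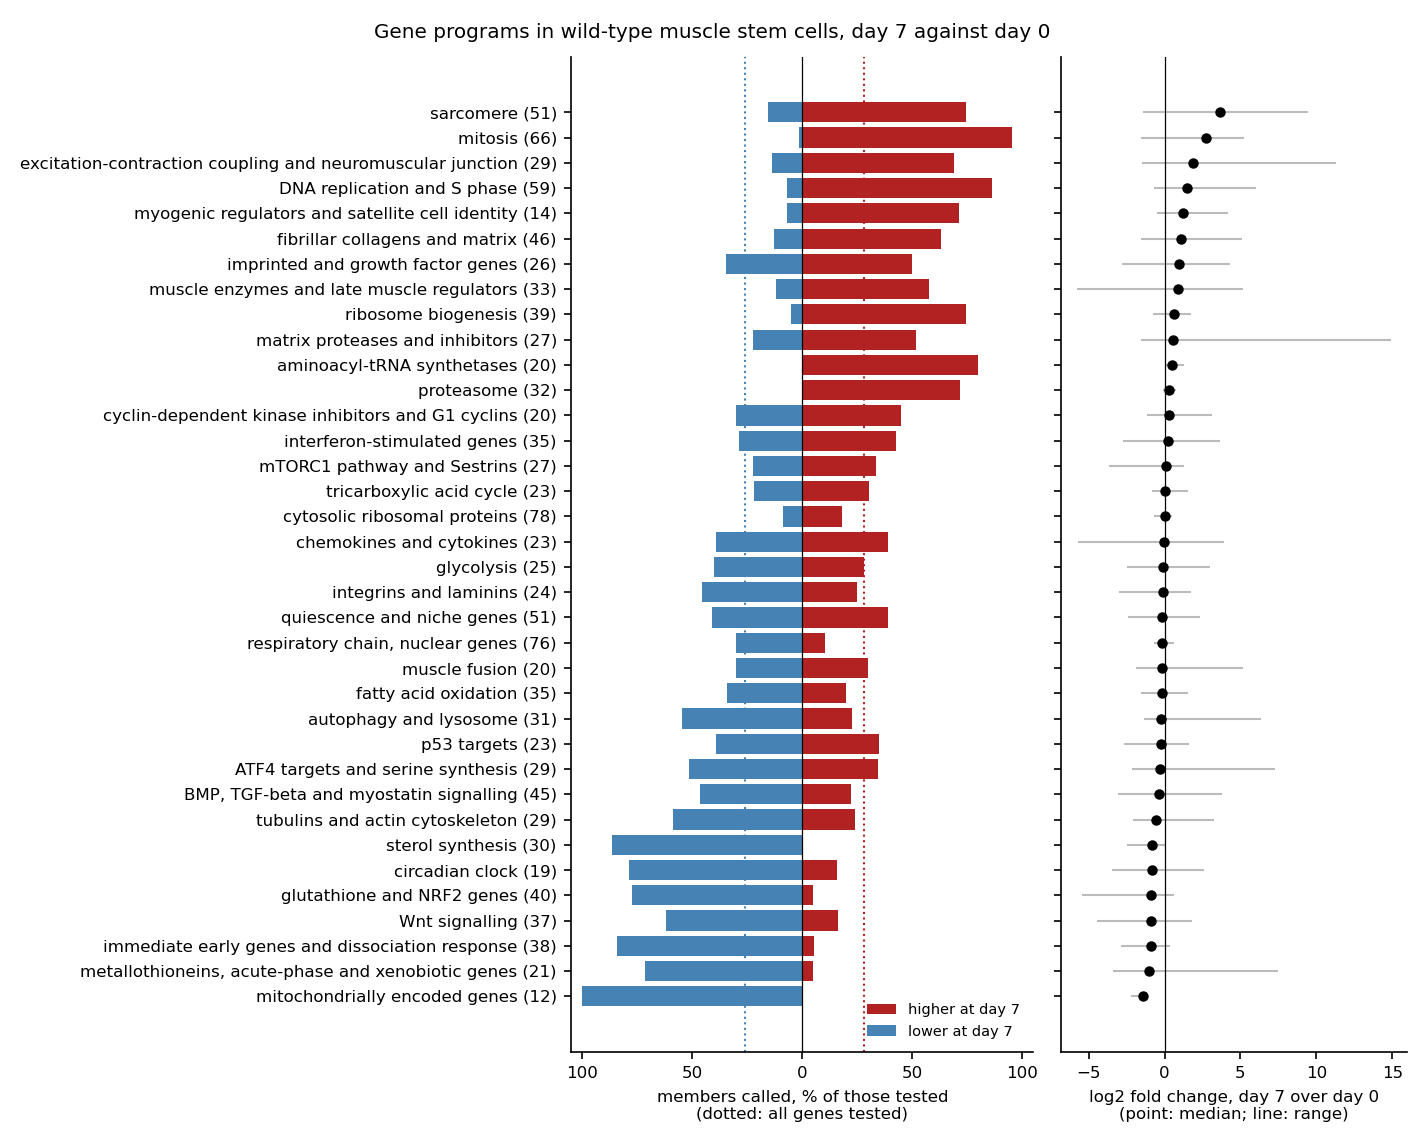
Left, the percentage of each gene program's tested members (number in brackets) that was called higher (red, to the right) or lower (blue, to the left) at day 7 against day 0 in wild type, with the percentages of all genes tested as dotted lines. Right, the median log2 fold change of the same members (point) and the range from the lowest to the highest member (line). Mitosis has 63 of 66 members called higher, and the mitochondrially encoded genes have all 12 called lower.

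The myogenic factors changed by different amounts. Myog, the factor that starts terminal differentiation (ENSMUSG00000026459, GRCm38 chr1:134289989-134292548), was at 89.6 and 95.4 CPM at day 0 and 1012 and 915 CPM at day 7 (log2 fold change 3.38, SE 0.0847, adjusted p = 4.27e-08). Myf6, which is tied to later differentiation, was at 0.326 and 0.526 CPM at day 0 and 6.74 and 8.69 CPM at day 7 (log2 fold change 4.15, SE 0.428, adjusted p = 5.46e-05). Myf5, a factor of the early committed cell, was at 37.9 and 36.9 CPM at day 0 and 99.4 and 88.0 CPM at day 7 (log2 fold change 1.33, SE 0.0862, adjusted p = 3.24e-06). In these 3 genes both day 7 libraries lay above both day 0 libraries. Myod1, the factor of activated myoblasts, was at 111 and 131 CPM at day 0 and 152 and 141 CPM at day 7, a difference of 0.27 on the log2 scale that just passed the test (adjusted p = 0.0388) and did not pass it under 6 of the alternatives. Pax7 was at 25.5 and 28.6 CPM at day 0 and 35.2 and 30.4 CPM at day 7, which did not pass (log2 fold change 0.28, SE 0.157, adjusted p = 0.165). In TPM Pax7 was at 6.45 and 6.77 TPM at day 0 and 10.9 and 8.89 TPM at day 7. Its rise passed the test in all 3 limma fits of TPM. Over the whole list of myogenic regulators and satellite cell identity genes, 10 of 14 tested members were called higher and 1 lower (Meox2, a call that did not hold in TPM), with a median log2 fold change of 1.21.

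Genes tied to quiescence and the stem cell niche went both ways, with 20 of 51 called higher and 21 lower (median -0.14, which turns positive in TPM). Hes1, the transcriptional repressor downstream of Notch that maintains rest, was at 223 and 216 CPM at day 0 and 40.6 and 46.3 CPM at day 7 (log2 fold change -2.34, SE 0.0934, adjusted p = 2.37e-07). Chrdl2, a secreted antagonist of bone morphogenetic proteins, was at 157 and 158 CPM at day 0 and 31.3 and 28.2 CPM at day 7 (log2 fold change -2.40, SE 0.0876, adjusted p = 1.63e-07). The surface glycoprotein Cd34, a marker of resting cells, was at 297 and 299 CPM at day 0 and 133 and 169.7 CPM at day 7 (log2 fold change -0.98, SE 0.133, adjusted p = 0.000368). All of these fell, with no overlap of libraries. Calcr, the calcitonin receptor of resting cells, was at 45.0 and 42.0 CPM at day 0 and 33.1 and 31.4 CPM at day 7 and did not pass the test (adjusted p = 0.0938). It did pass under 3 alternatives, which left out knockout libraries. Among the members that rose was Col5a1, a chain of collagen V, at 119 and 134 CPM at day 0 and 611 and 654 CPM at day 7 (log2 fold change 2.32, SE 0.0966, adjusted p = 2.91e-07), which any matrix-making cell can also express.

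Brakes of the cell cycle moved in opposite directions within one list. Cdkn1c, the inhibitor p57, rose from 279.7 and 283 CPM to 1439.5 and 1335 CPM (log2 fold change 2.30, SE 0.0625, adjusted p = 5.58e-08). Rb1, which holds back E2F factors, rose from 20.7 and 24.1 CPM to 66.8 and 77.2 CPM (log2 fold change 1.68, SE 0.124, adjusted p = 6.75e-06; 0.85 in the batch-corrected values). Cdkn1a, the inhibitor p21, fell from 1057 and 1140.5 CPM to 481 and 495 CPM (log2 fold change -1.17, SE 0.0580, adjusted p = 7e-07). The inhibitor p27, Cdkn1b, was lower too (14.4 and 16.0 CPM against 10.2 and 9.51 CPM), a call that did not hold in TPM. The G1 cyclins Ccnd1 and Ccnd2, which carry cells into the cycle, had log2 fold changes of -0.98 and -1.15, both called, although the call of Ccnd1 was lost when all 12 libraries were fitted. In all, 9 of 20 members of this list were called higher and 6 lower, with a median of 0.28.

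Genes of DNA replication and mitosis had the largest shares of members called higher among the 36 gene programs counted here. Among S phase genes 51 of 59 tested members were called higher, 4 lower and 4 not called, with a median log2 fold change of 1.48. Among mitosis genes 63 of 66 were called higher and 1 lower, with a median of 2.73. These shares stand against 27.9% of all genes. Mcm3, a subunit of the replicative helicase, was at 14.4 and 15.1 CPM at day 0 and 106 and 103 CPM at day 7 (log2 fold change 2.82, SE 0.0841, adjusted p = 6.79e-08), and its partner Mcm2 rose by 2.43 on the log2 scale. E2f1, an activator of S phase genes, was at 3.62 and 1.99 CPM at day 0 and 28.2 and 26.6 CPM at day 7 (log2 fold change 3.30, SE 0.250, adjusted p = 8.7e-06). The repressor E2f8, which closes that wave, was at 0.521 and 0.222 CPM at day 0 and 22.0 and 24.9 CPM at day 7 (log2 fold change 6.00, SE 0.292, adjusted p = 6.51e-07). Every day 7 library was above both day 0 libraries in these genes. Fanci, a DNA repair gene, rose from 0.261 and 1.27 CPM to 11.9 and 10.1 CPM. Its log2 fold change of 3.80 was 3.11 without the first and 5.38 without the second wild-type day 0 library, and that of E2f8 was 6.71 without the first.

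Cdk1, the kinase that starts mitosis, was at 5.83 and 4.93 CPM at day 0 and 70.3 and 69.2 CPM at day 7 (log2 fold change 3.70, SE 0.126, adjusted p = 1.19e-07). Its partner Ccna2 was at 10.9 and 9.14 CPM at day 0 and 88.2 and 85.4 CPM at day 7 (log2 fold change 3.12, SE 0.166, adjusted p = 1.4e-06). Top2a, the topoisomerase that untangles chromosomes, was at 7.62 and 7.06 CPM at day 0 and 125 and 126 CPM at day 7 (log2 fold change 4.10, SE 0.0873, adjusted p = 2.72e-08). The replicates of a day lay close together and the days were far apart in all 3. Nuf2, a part of the kinetochore, rose by 4.66 on the log2 scale. The exceptions were few. Pttg1, the securin that holds back chromosome separation, was the only mitosis gene called lower, at 113 and 106 CPM at day 0 and 36.7 and 36.7 CPM at day 7 (log2 fold change -1.57, SE 0.0789, adjusted p = 7.58e-07). In the S phase list the 4 genes called lower were Pcna, the sliding clamp of the polymerases, at 167 and 164 CPM at day 0 and 141 and 134 CPM at day 7, and Orc1, Slbp and Gins4, with log2 fold changes of -0.27, -0.71, -0.45 and -0.30. Of these only Slbp kept its call under every alternative; those of Pcna, Orc1 and Gins4 were lost in TPM among others.

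Promoters of these genes are shown because members of both lists moved together and because cell cycle promoters carry known short motifs. They were chosen after the matches were seen. The stretch of 150 bases before the RefSeq start site (GRCm38.p6) of Cdk1 (chr10:69352913-69353062, minus strand), Top2a (chr11:99024190-99024339, minus strand) and Mcm6 (chr1:128359706-128359855, minus strand) is given 5′ to 3′ with motif matches in capitals. The motifs were the E2F site (TTTCCCGC, TTTCGCGC, TTTGCCGC or TTTGGCGC), the CHR element (TTTGAA or TTCGAA) and the CCAAT box (CCAAT), each on both strands.
Cdk1: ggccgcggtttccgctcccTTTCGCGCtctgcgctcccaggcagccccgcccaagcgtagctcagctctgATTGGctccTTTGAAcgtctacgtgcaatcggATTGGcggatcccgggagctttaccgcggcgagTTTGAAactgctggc
Top2a: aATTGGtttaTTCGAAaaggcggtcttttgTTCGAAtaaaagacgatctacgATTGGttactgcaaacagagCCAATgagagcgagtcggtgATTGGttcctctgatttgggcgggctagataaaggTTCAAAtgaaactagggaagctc
Mcm6: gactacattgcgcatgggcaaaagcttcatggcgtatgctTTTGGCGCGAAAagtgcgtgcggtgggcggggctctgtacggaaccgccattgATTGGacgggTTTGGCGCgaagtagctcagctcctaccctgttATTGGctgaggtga
In Cdk1 the first capitals are an E2F match, and the others are 2 CCAAT and 2 CHR matches. In Top2a all capitals are CCAAT or CHR matches, and in Mcm6 the first capitals are 2 overlapping E2F matches, followed in order by a CCAAT match, another E2F match and another CCAAT match. In windows of 300 bases around the start site, E2F letters were found in 37.0% of 46 S phase promoters, 11.1% of 54 mitosis promoters and 3.74% of the 11236 promoters of all genes tested that had a RefSeq window. CHR letters were found in 75.9% of mitosis promoters, 19.6% of S phase promoters and 13.8% of all. CCAAT letters were in 70.4% of mitosis promoters, 63.0% of S phase promoters and 38.1% of all. A match is a description of the letters, not evidence of a bound site. The CPM of Mcm6 itself were 36.6 and 36.9 at day 0 and 195 and 198 at day 7 (log2 fold change 2.42, SE 0.0713, adjusted p = 6.79e-08).

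Contractile genes had the largest median rise of the 36 programs. Of 51 sarcomere genes tested 38 were called higher and 8 lower, with a median log2 fold change of 3.67. Myh3, the embryonic myosin heavy chain (ENSMUSG00000020908, GRCm38 chr11:67078300-67102291), was at 0.782 and 1.16 CPM at day 0 and 143 and 187 CPM at day 7 (log2 fold change 7.38, SE 0.246, adjusted p = 2.7e-07). Myh8, the neonatal heavy chain, was at 0.196 and 0.166 CPM at day 0 and 112 and 141 CPM at day 7 (log2 fold change 9.43, SE 0.273, adjusted p = 9.66e-08). Both myosins of newly made fibres were low at day 0 and above 100 CPM in each day 7 library. The adult fast myosin Myh1 was at 2.38 and 2.74 CPM at day 0 and 124 and 174 CPM at day 7 (log2 fold change 5.86, SE 0.452, adjusted p = 0.000103). Myh4, another, was at 1.40 and 2.71 CPM at day 0 and 67.2 and 174 CPM at day 7 (log2 fold change 5.85, SE 0.852, adjusted p = 0.0027), with a wide gap between the day 7 replicates. A further adult fast myosin, Myh2, was at 4.76 and 5.65 CPM at day 0 and 6.00 and 1.43 CPM at day 7 and did not pass the test (adjusted p = 0.66). Myosin heavy chains are near-identical in part, and estimated counts share reads among them, so their separate values are less certain than their sum.

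The giant spring protein gene Ttn was at 4.46 and 4.76 CPM at day 0 and 236 and 249 CPM at day 7 (log2 fold change 5.71, SE 0.391, adjusted p = 6.49e-05). Skeletal actin, Acta1, was at 44.2 and 50.5 CPM at day 0 and 854 and 1179.9 CPM at day 7 (log2 fold change 4.42, SE 0.238, adjusted p = 1.2e-05), and cardiac actin, Actc1, which is also made in developing muscle, was at 25.9 and 27.6 CPM at day 0 and 523 and 566 CPM at day 7 (log2 fold change 4.35, SE 0.0821, adjusted p = 1.7e-08). Myl1, an alkali myosin light chain, was at 17.0 and 15.3 CPM at day 0 and 366 and 583 CPM at day 7. In Acta1 and Myl1 the second day 7 library was clearly above the first, while both stayed far above day 0. Csrp3, a stretch sensor of the Z disc, was at 0.0978 and 0.249 CPM at day 0 and 13.0 and 10.3 CPM at day 7. It had only 3 and 9 counts at day 0, so the size of its rise is uncertain: the log2 fold change was 6.00, 6.84 without the second wild-type day 0 library and 3.30 at the lowest over the alternatives. Sarcomere genes that fell were led by Tpm1 (1958 and 2054 CPM at day 0 and 730.4 and 876 CPM at day 7; log2 fold change -1.32, SE 0.0879, adjusted p = 3.85e-06), Tpm2 (2749 and 3009 CPM at day 0 and 1023 and 1213 CPM at day 7; log2 fold change -1.36, SE 0.0969, adjusted p = 6.29e-06) and the Z disc gene Pdlim3 (log2 fold change -1.42). Tropomyosins are also made by smooth muscle and other non-muscle cells. No list of muscle fibre markers was counted among the cell types, and the part of fibre material in the contractile rise was not tested.

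Promoters of 3 sarcomere genes with muscle motifs, chosen like those above, are given in the same way: Acta1 (chr8:123894776-123894925, minus strand) and Actc1 (chr2:114052876-114053025, minus strand) with matches to the CArG box, the site of serum response factor, in capitals, and Mybph (chr1:134193298-134193447, plus strand) with a match to the myogenic E-box (CAGCTG). Each is written from its far end towards the start site, with only the named matches in capitals.
Acta1: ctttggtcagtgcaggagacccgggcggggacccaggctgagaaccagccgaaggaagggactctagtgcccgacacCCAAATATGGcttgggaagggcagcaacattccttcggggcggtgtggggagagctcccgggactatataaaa
Actc1: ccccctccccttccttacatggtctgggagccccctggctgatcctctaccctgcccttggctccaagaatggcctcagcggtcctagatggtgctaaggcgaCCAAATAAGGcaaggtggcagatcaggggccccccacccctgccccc
Mybph: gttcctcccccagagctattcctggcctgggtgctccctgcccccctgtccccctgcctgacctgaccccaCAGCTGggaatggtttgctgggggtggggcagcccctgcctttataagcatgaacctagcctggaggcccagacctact
CArG letters were in 6 of 40 sarcomere promoters and 1.35% of all 11236, counted on both strands in 300 bases. The same E-box letters were in 42.5% and 15.8%, and letters of the MEF2 site in 6 of 40 and 2.93%. In promoters of genes called at least 2-fold higher the CArG, E-box and MEF2 shares were 1.11%, 20.5% and 3.49%. In those of genes called at least 2-fold lower they were 1.59%, 17.2% and 2.62%. Mybph, which encodes a myosin-binding protein, was at 16.6 and 15.5 CPM at day 0 and 95.2 and 129 CPM at day 7 (log2 fold change 2.80, SE 0.146, adjusted p = 1.33e-06).

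Genes of excitation-contraction coupling and of the synapse on muscle were called higher in 20 of 29 cases and lower in 4, with a median of 1.90. The pore of the calcium channel that triggers contraction, Cacna1s, had 0 CPM in both libraries at day 0 and 6.77 and 11.7 CPM at day 7, at least 102-fold higher when day 0 is set to a floor of 3 counts in each library. Chrng, the fetal subunit of the acetylcholine receptor, was at 1.37 and 0.969 CPM at day 0 and 30.7 and 39.2 CPM at day 7 (log2 fold change 4.91, SE 0.205, adjusted p = 2.91e-07), and Chrnd, its delta subunit, at 0.978 and 0.692 CPM at day 0 and 19.6 and 27.2 CPM at day 7 (log2 fold change 4.81, SE 0.311, adjusted p = 4.6e-06). The alpha subunit Chrna1 had been present at day 0 and was at 76.2 and 72.0 CPM at day 0 and 270.4 and 283 CPM at day 7 (log2 fold change 1.90, SE 0.0709, adjusted p = 1.79e-07). The beta subunit Chrnb1 was at 148 and 153 CPM at day 0 and 171 and 164 CPM at day 7 and did not pass the test (adjusted p = 0.112). Its small rise did pass under 7 of the 19 alternatives, the TPM fits among them. The subunits of one receptor thus differed widely in the size of their change.

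The muscle fusion list moved little as a whole: 6 of 20 members were called higher and 6 lower (median -0.16, positive in TPM). Its muscle-specific fusion proteins did rise. Tmem8c, the gene of the fusion protein myomaker, was at 17.0 and 18.1 CPM at day 0 and 239 and 257 CPM at day 7 (log2 fold change 3.82, SE 0.0867, adjusted p = 3.36e-08). Gm7325, the gene of its partner myomixer, was at 0.619 and 0.692 CPM at day 0 and 21.0 and 27.5 CPM at day 7 (log2 fold change 5.20, SE 0.200, adjusted p = 1.99e-07). Cdh15, the cadherin of satellite cells, was at 162 and 179 CPM at day 0 and 329.9 and 293 CPM at day 7 (log2 fold change 0.87, SE 0.0867, adjusted p = 4.15e-05). The days did not overlap in any of these 3 genes. Muscle enzymes and late regulators were called higher in 19 of 33 cases and lower in 4 (median 0.87), among them Ckm, the muscle creatine kinase, at 4.99 and 5.70 CPM at day 0 and 77.1 and 149 CPM at day 7 (log2 fold change 4.40, SE 0.535, adjusted p = 0.00109), and Trim63, the ubiquitin ligase of muscle atrophy, at 1.08 and 0.443 CPM at day 0 and 20.7 and 32.7 CPM at day 7 (log2 fold change 5.16, SE 0.404, adjusted p = 2.08e-05).

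**Figure D2:**
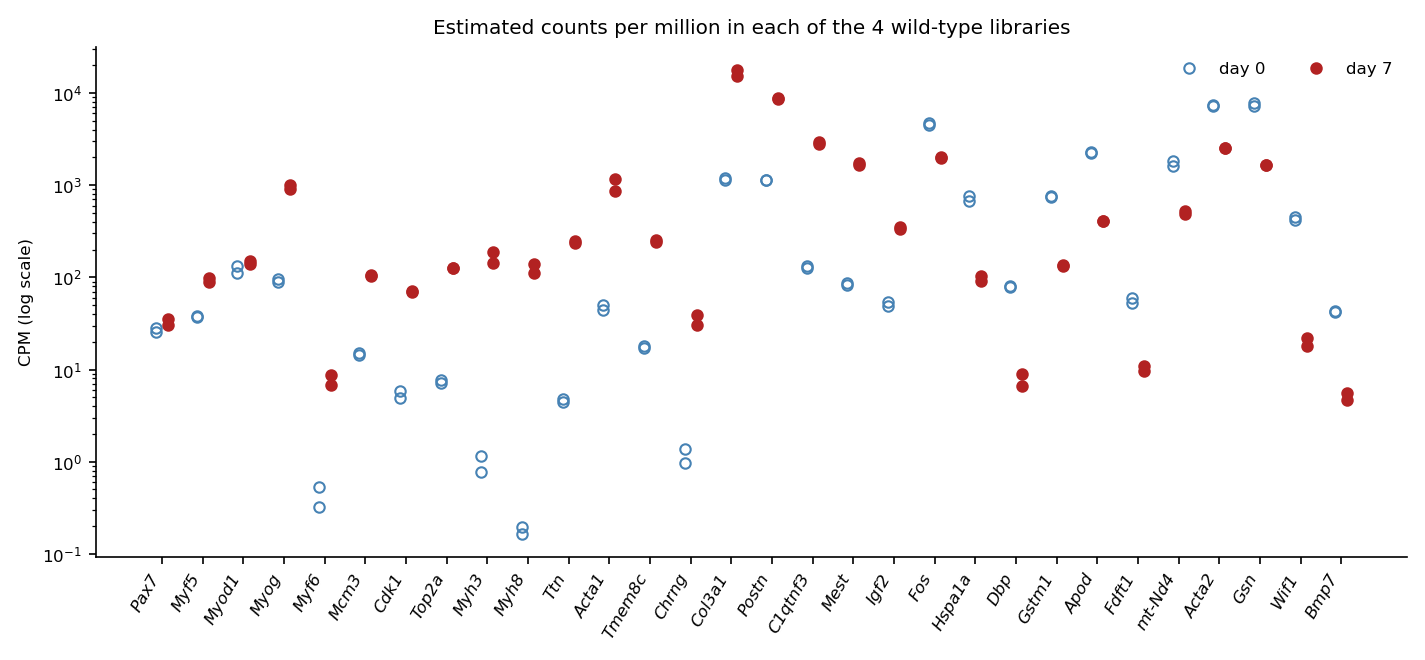
CPM of 30 genes in each of the 4 wild-type libraries on a log axis, with day 0 as open blue circles and day 7 as filled red circles, 2 libraries a day. The myogenic factors stand at the left, then cell cycle, muscle, matrix and growth genes, and the genes that fell stand at the right. Pax7 and Myod1 differ little between the days, while Myh8 lies near 0.2 CPM at day 0 and above 100 CPM at day 7.

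Matrix genes took at least 4 of the 10 largest gains in TPM among all genes called. Of 46 collagen and matrix genes 29 were called higher and 6 lower, with a median of 1.08. Col3a1, the collagen III chain of healing tissue, was at 267 and 273 TPM at day 0 and 4314 and 5010.4 TPM at day 7 (log2 fold change 3.82, SE 0.125, adjusted p = 1.63e-07). Col1a1, a chain of collagen I, was at 1439.8 and 1498 TPM at day 0 and 4709.6 and 5181 TPM at day 7 (log2 fold change 1.48). Its partner chain Col1a2 was at 1427 and 1459.5 TPM at day 0 and 2775 and 3001 TPM at day 7 (log2 fold change 0.73). Postn, the matricellular protein periostin, was at 449.7 and 441 TPM at day 0 and 4012 and 4198 TPM at day 7 (log2 fold change 2.94, SE 0.0791, adjusted p = 5.58e-08). In all 4 genes both day 7 libraries were far above day 0. C1qtnf3, a secreted relative of complement C1q, was another of the 10 largest gains, at 76.6 and 72.5 TPM at day 0 and 2043 and 1928 TPM at day 7 (log2 fold change 4.46, SE 0.106, adjusted p = 3.99e-08), as was the membrane protein gene Itm2a (log2 fold change 2.24, SE 0.0797, adjusted p = 1.44e-07). Cthrc1, a secreted protein of matrix-making cells, had the largest fold rise in the list (log2 fold change 5.13, SE 0.139, adjusted p = 5.58e-08). The small proteoglycan Dcn fell from a high level, 5968 and 5787 TPM at day 0 and 2481 and 2388 TPM at day 7 (log2 fold change -1.54, SE 0.0836, adjusted p = 1.16e-06), and Fmod, another of that family, had a log2 fold change of -1.39.

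Collagens are made chiefly by fibroblasts, so markers of other cells in the sort are given here. Fibro-adipogenic progenitor markers were called higher in 5 of 10 cases and lower in 3, and their summed level was 423 and 405 TPM at day 0 and 1573 and 1643 TPM at day 7. Most of the rise in that sum was Mfap5, a microfibril protein, and without it (a choice made after the values were seen) the sum was 259.6 and 241 TPM at day 0 and 446 and 497 TPM at day 7. Tenocyte markers were called higher in 1 of 6 cases and lower in 4, with a summed level of 2359 and 2444 TPM at day 0 and 3097 and 2932 TPM at day 7, which was higher at day 7 although most of these markers were called lower. Markers of both cell types were present on both days, and the summed fibro-adipogenic level was higher at day 7, as were most matrix genes. In bulk samples a change in the share of cells of a type and a change in RNA per cell cannot be told apart, and the part these cells had in the matrix result was not tested.

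Matrix proteases and their inhibitors were called higher in 14 of 27 cases and lower in 6 (median 0.58). Mmp13, a collagenase (ENSMUSG00000050578, GRCm38 chr9:7272514-7283331), had 0 CPM in both libraries at day 0 and 120.4 and 108 CPM at day 7. That is at least 1264-fold higher against a floor of 3 counts in each day 0 library, and it was the largest fitted rise among called genes with a mean of at least 20 CPM. Mmp3, the protease stromelysin 1, was at 6.39 and 7.39 CPM at day 0 and 43.4 and 38.0 CPM at day 7 (log2 fold change 2.56, SE 0.242, adjusted p = 7.31e-05), and Mmp2, a gelatinase, at 729 and 785 CPM at day 0 and 1364 and 1418 CPM at day 7 (log2 fold change 0.88, SE 0.0565, adjusted p = 3.07e-06). Adam12, a membrane protease of regenerating muscle, was at 7.72 and 8.64 CPM at day 0 and 51.5 and 49.8 CPM at day 7 (log2 fold change 2.63, SE 0.152, adjusted p = 1.66e-06). In TPM its rise was smaller, from 3.73 and 5.18 TPM to 14.6 and 11.5 TPM, and its log2 fold change was 1.11 in the batch-corrected values. All 4 were higher in both day 7 libraries than in either day 0 library. Integrins and laminins, which anchor cells to the sheath, had no stable median (-0.12, positive in TPM), with 6 of 24 higher and 11 lower. Lamb1, a laminin chain of growing tissue, was at 116 and 113 CPM at day 0 and 383 and 392 CPM at day 7 (log2 fold change 1.76, SE 0.0867, adjusted p = 6.82e-07), and Itgb4, an integrin of nerve sheath and skin, at 136 and 145 CPM at day 0 and 14.9 and 20.3 CPM at day 7 (adjusted p = 0.000114).

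Imprinted and growth factor genes were called higher in 13 of 26 cases and lower in 9, with a median of 0.93. Mest, an imprinted gene active in growing tissue, was at 87.2 and 83.4 CPM at day 0 and 1727 and 1660.2 CPM at day 7 (log2 fold change 4.31, SE 0.0615, adjusted p = 4.14e-09). Igf2, the fetal insulin-like growth factor, was at 48.7 and 53.4 CPM at day 0 and 348 and 334 CPM at day 7 (log2 fold change 2.74, SE 0.0786, adjusted p = 6.79e-08). Grb10, an imprinted brake on insulin signalling, was at 120.4 and 119 CPM at day 0 and 739 and 698 CPM at day 7 (log2 fold change 2.59, SE 0.0646, adjusted p = 4.27e-08), and Dlk1, a membrane ligand of the Notch type, at 4.37 and 4.38 CPM at day 0 and 24.0 and 24.9 CPM at day 7 (log2 fold change 2.48, SE 0.126, adjusted p = 7.79e-07). None of the day 7 values of these genes overlapped with day 0.

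Genes that serve protein synthesis and turnover were mostly called higher, by smaller amounts. Ribosome biogenesis factors were called higher in 29 of 39 cases (median 0.64), aminoacyl-tRNA synthetases in 16 of 20 (median 0.48) and proteasome subunits in 23 of 32 (median 0.30). Lower calls numbered 2, 0 and 0 in the same lists. Tsr1, a factor in assembly of the small ribosomal subunit, was at 43.3 and 45.5 CPM at day 0 and 129 and 128 CPM at day 7 (log2 fold change 1.53, SE 0.0686, adjusted p = 4.14e-07), and Nop2, a methyltransferase of ribosomal RNA, at 48.8 and 46.9 CPM at day 0 and 123 and 132 CPM at day 7 (log2 fold change 1.41, SE 0.0803, adjusted p = 1.53e-06). Iars and Vars, the isoleucine and valine synthetases, rose by 1.27 and 1.09 on the log2 scale. Genes of the ribosomal proteins themselves mostly did not pass: 14 of 78 were called higher and 7 lower, with a median of 0.01 that changes sign with the scaling and without single wild-type libraries.

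Stress genes under the factor ATF4 were divided. Slc7a5, the transporter of leucine, was at 102 and 99.0 CPM at day 0 and 367 and 323 CPM at day 7 (log2 fold change 1.78, SE 0.0786, adjusted p = 3.88e-07). Atf4 itself fell from 609 and 624 CPM to 327 and 337 CPM (log2 fold change -0.89, SE 0.0564, adjusted p = 2.78e-06). Its targets Ddit3, a death-promoting factor, and Trib3, a pseudokinase, had log2 fold changes of -1.66 and -2.16. The list had 10 of 29 members higher and 15 lower (median -0.28). Of the Sestrins, Sesn1 was at 73.4 and 72.0 CPM at day 0 and 84.5 and 69.5 CPM at day 7 and did not pass (adjusted p = 0.588), though it rose in 2 of the TPM fits. Sesn2, whose libraries are given above, fell (log2 fold change -0.83, SE 0.124, adjusted p = 0.00048). Sesn3 was at 2.02 and 2.44 CPM at day 0 and 5.90 and 5.06 CPM at day 7 (log2 fold change 1.30, SE 0.257, adjusted p = 0.00251). The call for Sesn2 was lost when all 12 libraries were fitted and in the batch-corrected values. The wider list of the mTORC1 pathway had 9 of 27 members higher, 6 lower and 12 not called.

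Immediate early, heat shock and other dissociation genes fell nearly as a block: 32 of 38 were called lower, against 26.1% of all genes, with a median of -0.92. Fos, a subunit of the factor AP-1, was at 4465 and 4705 CPM at day 0 and 1982 and 2032 CPM at day 7 (log2 fold change -1.19, SE 0.0590, adjusted p = 7.05e-07). Gadd45b, a growth arrest gene induced by stress, was at 1379.5 and 1459.7 CPM at day 0 and 289 and 306 CPM at day 7 (log2 fold change -2.25, SE 0.0667, adjusted p = 6.79e-08). The heat shock gene Hspa1a was at 677 and 771 CPM at day 0 and 91.4 and 103 CPM at day 7 (log2 fold change -2.90, SE 0.132, adjusted p = 8.03e-07); its near-identical copy Hspa1b moved alike (-2.70), and estimated counts can shift between them. The only members called higher were Klf2 and Klf6, Krüppel-like factors, with log2 fold changes of 0.37 and 0.30. Fos was still near 2000 CPM at day 7, so these transcripts were present at both days. The time from dissection to sort is not in the labels. Ubb, a polyubiquitin gene, had 1 of the 10 largest losses in TPM, at 9546 and 9876 TPM at day 0 and 6370.0 and 6267 TPM at day 7 (log2 fold change -0.89). Its repeat unit has near-identical copies elsewhere in the genome, so its share of reads is uncertain.

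In wild type the circadian clock was lower at day 7 on the side of its output and repressor genes. 15 of 19 clock genes were called lower and 3 higher, with a median of -0.85. Dbp, an output factor of the clock, was at 78.5 and 81.4 CPM at day 0 and 8.91 and 6.62 CPM at day 7 (log2 fold change -3.36, SE 0.177, adjusted p = 1.05e-06). Ciart, a repressor, was at 22.0 and 19.8 CPM at day 0 and 2.12 and 1.62 CPM at day 7 (log2 fold change -3.48, SE 0.201, adjusted p = 1.68e-06), and Nr1d1, the repressor REV-ERB alpha, at 347 and 362 CPM at day 0 and 152 and 148 CPM at day 7 (log2 fold change -1.24, SE 0.0584, adjusted p = 5.45e-07). The 3 genes called higher belong to the activator arm: Arntl (26.8 and 24.5 CPM at day 0 and 42.3 and 42.9 CPM at day 7), Clock (13.6 and 13.4 CPM at day 0 and 21.8 and 18.1 CPM at day 7) and Npas2 (3.32 and 2.55 CPM at day 0 and 17.8 and 18.4 CPM at day 7), with log2 fold changes of 0.73, 0.57 and 2.63. The call of Arntl was lost when all 12 libraries were fitted, and that of Clock without the second day 0 or the first day 7 library of wild type. The hour of collection is not in the labels. In the knockout Dbp was at 3.96 and 4.45 CPM at day 0 and 9.14 and 6.88 CPM at day 7. Nr1d1 was at 43.4 and 44.7 CPM at day 0 and 136 and 140 CPM at day 7 there. Ciart was at 6.17 and 6.50 CPM at day 0 and 2.47 and 2.82 CPM at day 7. All 3 were lower at day 0 than in wild type, and only Ciart fell. Arntl, Clock and Npas2 did not rise there (log2 fold changes -0.37, -0.48 and -0.12), while the median of the list was -0.54.

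Genes of detoxification and redox defence were mostly lower at day 7. In the list of glutathione and NRF2 genes 31 of 40 were called lower and 2 higher (Gsr and Gpx8, 0.59 and 0.35), with a median of -0.86. Gstm1, a glutathione transferase with close copies in the genome, was at 751 and 771 CPM at day 0 and 137 and 131 CPM at day 7 (log2 fold change -2.50, SE 0.0581, adjusted p = 3.55e-08). The master factor of the pathway, Nfe2l2, was at 341 and 358 CPM at day 0 and 203 and 202 CPM at day 7 (log2 fold change -0.79, SE 0.0588, adjusted p = 6.99e-06), and Slc7a11, its cystine transporter target, at 6.71 and 5.07 CPM at day 0 and 1.76 and 1.62 CPM at day 7 (log2 fold change -1.80, SE 0.255, adjusted p = 0.000358). The inhibitor Keap1 was at 44.5 and 54.1 CPM at day 0 and 50.4 and 50.7 CPM at day 7 and did not pass (adjusted p = 0.815). In the knockout the median of this list was -0.26, and all 22 members with a called difference between genotypes were more positive there. Nfe2l2 was at 260 and 277 CPM at day 0 and 260 and 266 CPM at day 7 in the knockout. Of 21 metallothionein, acute-phase and xenobiotic genes 15 were called lower and 1 higher (median -1.05). Hsd11b1, which regenerates active glucocorticoid, was at 89.2 and 88.1 CPM at day 0 and 8.33 and 8.90 CPM at day 7 (log2 fold change -3.36, SE 0.0908, adjusted p = 5.58e-08). Apod, a lipid-carrying lipocalin, was at 2260.0 and 2300.2 CPM at day 0 and 404 and 408 CPM at day 7 (log2 fold change -2.49, SE 0.0513, adjusted p = 2.53e-08). Mt1 was lower (-0.46), a call lost under 8 alternatives. The ferritin heavy chain gene Fth1 fell from 2873 and 2936 CPM to 1004 and 1037 CPM (log2 fold change -1.51, SE 0.0575, adjusted p = 1.93e-07), and with Crip1, a small LIM protein, was among the 10 largest losses in TPM.

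Every gene of sterol synthesis that passed the test fell: 26 of 30 were lower and 0 higher, with a median of -0.83. In the knockout the median was -0.74. Schwann cell and skin markers, given below, were also lower at day 7 in wild type, and their part in the sterol result was not tested. Fdft1, squalene synthase, was at 53.1 and 59.7 CPM at day 0 and 9.61 and 11.0 CPM at day 7 (log2 fold change -2.45, SE 0.150, adjusted p = 2.4e-06). Idi1, an isomerase of the same route, was at 178 and 159 CPM at day 0 and 36.3 and 31.4 CPM at day 7 (log2 fold change -2.31, SE 0.108, adjusted p = 5.06e-07), and Hmgcs1, near its start, at 136 and 141 CPM at day 0 and 49.4 and 40.4 CPM at day 7 (log2 fold change -1.62, SE 0.121, adjusted p = 7.75e-06).

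Transcripts made in the mitochondria fell without exception among those tested, 12 of 12, with a median of -1.40. In CPM mt-Nd2, a subunit of complex I, was at 872 and 730.4 CPM at day 0 and 171 and 172 CPM at day 7 (log2 fold change -2.22, SE 0.169, adjusted p = 2.81e-05), and mt-Nd4, another, at 1833 and 1596 CPM at day 0 and 484 and 527 CPM at day 7 (log2 fold change -1.76, SE 0.118, adjusted p = 5.75e-06). On the TPM scale mt-Co3, a subunit of cytochrome oxidase, was at 10407 and 9819.5 TPM at day 0 and 5046 and 5024 TPM at day 7, and mt-Atp6, a subunit of ATP synthase, at 8905 and 7334 TPM at day 0 and 3499 and 3356 TPM at day 7. Day 7 libraries were below day 0 libraries in all of these. Mitochondrial genes also have copies in the nuclear genome, with which reads can be shared. Subunits of the same complexes that are encoded in the nucleus did not follow: 45 of 76 were not called, 23 were lower and 8 higher, and the median of -0.15 turned positive in TPM. The tricarboxylic acid cycle (7 higher and 5 lower of 23), fatty acid oxidation (7 and 12 of 35) and glycolysis (7 and 10 of 25) were likewise mixed. Within glycolysis Eno3, the muscle enolase, rose (25.5 and 28.5 CPM at day 0 and 164 and 263 CPM at day 7), while the glucose transporter Slc2a1 and the lactate dehydrogenase chain Ldhb fell (log2 fold changes -1.50 and -2.15).

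Several contractile genes typical of smooth muscle fell. Acta2, smooth muscle actin, was at 4699 and 4694 TPM at day 0 and 1971 and 1932 TPM at day 7 (log2 fold change -1.54, SE 0.0510, adjusted p = 1.09e-07). Myl9, a regulatory light chain of myosin, was at 5052 and 4720.4 TPM at day 0 and 1517 and 1562 TPM at day 7 (log2 fold change -1.96, SE 0.0583, adjusted p = 6.79e-08). Tagln, which binds actin in the same cells, had a log2 fold change of -2.06. Gsn, which severs actin filaments, was at 3472 and 3654 TPM at day 0 and 937 and 935 TPM at day 7 (log2 fold change -2.20, SE 0.0707, adjusted p = 9.52e-08). Acta2, Myl9 and Gsn were among the 10 largest losses in TPM. By contrast Actb, cytoplasmic actin, was among the 10 largest gains, at 2119 and 2338 TPM at day 0 and 3596 and 3697 TPM at day 7 (log2 fold change 0.38). In the list of tubulins and actin cytoskeleton 17 of 29 were lower and 7 higher (median -0.55). The pericyte and smooth muscle markers, which were counted separately, had 2 of 8 called higher and 3 lower, and a summed level of 763 and 781 TPM at day 0 and 709 and 815 TPM at day 7, which overlapped between days. Des, the intermediate filament protein desmin, which muscle cells also make, held most of that sum, and without it (a choice made after the values were seen) the sum of the others was lower at day 7, at 333 and 328 TPM at day 0 and 190.1 and 223 TPM at day 7. Myh11, smooth muscle myosin, was at 202 and 199.8 TPM at day 0 and 67.0 and 76.7 TPM at day 7, and its fall passed the test, as did those of Cspg4 and Notch3. The pericyte genes Rgs5 (35.1 and 30.6 TPM at day 0, 62.8 and 80.6 TPM at day 7) and Abcc9 (0.849 and 0.923 TPM, then 2.95 and 4.04 TPM) rose. The part of such cells in the fall of the contractile genes was not tested.

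Genes of Wnt signalling were mostly lower. 23 of 37 Wnt genes were called lower and 6 higher, with a median of -0.90. Wif1, a secreted inhibitor of Wnt proteins, was at 414 and 447 CPM at day 0 and 22.2 and 18.0 CPM at day 7 (log2 fold change -4.42, SE 0.178, adjusted p = 6.67e-07). Rspo3, a secreted amplifier of Wnt signals, was at 15.8 and 14.3 CPM at day 0 and 1.76 and 1.06 CPM at day 7 (log2 fold change -3.41, SE 0.320, adjusted p = 2.9e-05). Of the ligands, Wnt5a fell (15.9 and 15.2 CPM at day 0 and 7.90 and 7.84 CPM at day 7; log2 fold change -0.98, SE 0.156, adjusted p = 0.000698) and Wnt4 rose (16.0 and 14.8 CPM at day 0 and 37.9 and 35.4 CPM at day 7; log2 fold change 1.25, SE 0.170, adjusted p = 0.000291). In the knockout the median of the list was -0.22, and 13 of the 15 genes whose response differed between genotypes were more positive there. Wif1 was at 124 and 134 CPM at day 0 and 38.0 and 53.4 CPM at day 7 in the knockout, Rspo3 at 2.89 and 2.97 CPM at day 0 and 2.32 and 3.82 CPM at day 7 and Wnt5a at 2.20 and 2.59 CPM at day 0 and 8.05 and 7.44 CPM at day 7, so all 3 were lower at day 0 than in wild type. Skin markers followed the same order at day 0. They summed to 96.1 and 102 TPM at day 0 and 10.3 and 17.7 TPM at day 7 in wild type and 3.40 and 3.39 TPM at day 0 and 7.38 and 7.17 TPM at day 7 in the knockout, and their part in the Wnt result was not tested. In the list of BMP, TGF-beta and myostatin signalling 21 of 45 were lower and 10 higher (median -0.36). The ligand Bmp7 was at 42.3 and 43.3 CPM at day 0 and 5.51 and 4.69 CPM at day 7 (log2 fold change -3.07, SE 0.127, adjusted p = 2.7e-07), and Id4, an inhibitor of differentiation that BMP signals induce, at 62.5 and 67.8 CPM at day 0 and 11.5 and 10.8 CPM at day 7 (log2 fold change -2.54, SE 0.124, adjusted p = 6.59e-07). Ltbp2, a matrix protein of the latent TGF-beta binding family, was at 2.38 and 3.43 CPM at day 0 and 38.9 and 40.9 CPM at day 7 (log2 fold change 3.77, SE 0.167, adjusted p = 3.93e-07).

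Immune transcripts were mixed. Chemokines and cytokines had 9 of 23 members higher and 9 lower, with no stable median: it was -0.06, but 0.02 without the first day 0 library and 0.12 without the first day 7 library of wild type, and positive in TPM. Ccl8, which attracts monocytes, rose from 0.619 and 0.360 CPM to 6.82 and 7.21 CPM, and Cxcl9, which attracts T cells, from 5.44 and 4.74 CPM to 34.0 and 42.0 CPM (log2 fold changes 3.85 and 2.90). The chemokine Cxcl14 was at 135 and 139 CPM at day 0 and 19.02 and 22.2 CPM at day 7 (log2 fold change -2.73, SE 0.107, adjusted p = 2.14e-07). Interferon-stimulated genes had 15 of 35 higher and 10 lower (median 0.20, and -0.02 among genes with at least 10 counts in every library); Ifit1, an antiviral RNA-binding protein, was at 23.9 and 22.5 CPM at day 0 and 140.3 and 191 CPM at day 7 (log2 fold change 2.84, SE 0.147, adjusted p = 1.3e-06). Il1rl1, the receptor of interleukin 33, was at 0.261 and 0.194 CPM at day 0 and 31.2 and 43.5 CPM at day 7 (log2 fold change 7.35, SE 0.309, adjusted p = 4.23e-07). Cd74, the invariant chain of antigen presentation, was at 1.40 and 1.27 CPM at day 0 and 104 and 197 CPM at day 7 (log2 fold change 6.81, SE 0.973, adjusted p = 0.00249), with the second day 7 library well above the first. Macrophage markers moved with these genes: 10 of 11 were called higher and 1 lower, with C1qb at 0 CPM in both day 0 libraries and 18.1 and 34.8 CPM at day 7, at least 292-fold higher. The summed level of the 10 macrophage markers other than Lyz2 was 10.7 and 10.5 TPM at day 0 and 114 and 192 TPM at day 7. Lyz2 went the other way, at 2027 and 2043 TPM at day 0 and 320.3 and 424 TPM at day 7. The part of macrophages in the immune transcripts was not tested.

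Markers of nerve sheath, blood and skin cells were lower at day 7. Schwann cell markers were called lower in 7 of 7 cases, and their summed level was 3156 and 3222 TPM at day 0 and 724 and 669 TPM at day 7; Mbp, a myelin protein, alone was at 1124 and 1167 TPM at day 0 and 149 and 134 TPM at day 7. Red blood cell markers were lower in 6 of 6 cases, with a sum of 3122 and 3129 TPM at day 0 and 793 and 1073 TPM at day 7. In the knockout that sum was 782 and 742 TPM at day 0 and 329 and 765 TPM at day 7, which overlapped between days. Skin markers in wild type were lower in 5 of 8 cases, with a sum of 96.1 and 102 TPM at day 0 and 10.3 and 17.7 TPM at day 7. Hair and skin keratins led the genes with the largest falls: Krt71 was at 50.0 and 50.5 CPM at day 0 and 0 and 0.0265 CPM at day 7, Krt17 at 98.9 and 111 CPM at day 0 and 0.265 and 0.477 CPM at day 7, and Krt25 at 19.6 and 22.7 CPM at day 0 and 0 CPM in both day 7 libraries, at least 279-fold lower. In the knockout Krt25, Krt71 and Krt17 had no counts in either day 0 library, and the skin markers summed to 3.40 and 3.39 TPM at day 0 and 7.38 and 7.17 TPM at day 7, so these falls turn on the wild-type day 0 libraries. Among the 15 largest falls were also Cntf, a neurotrophic factor made by Schwann cells (29.3 and 32.5 CPM at day 0 and 0.771 and 0.954 CPM at day 7), and Crabp1, which binds retinoic acid (51.6 and 57.4 CPM at day 0 and 3.56 and 3.50 CPM at day 7). Endothelial markers had 0 of 10 called higher and 1 lower, with a sum of 260.2 and 258 TPM at day 0 and 151 and 261 TPM at day 7. Markers of muscle stem cells, the cell type given in the labels, were called higher in 6 of 10 cases and lower in 1, with a sum of 978 and 951 TPM at day 0 and 1343 and 1207 TPM at day 7. At day 0 the summed Schwann, red blood cell, tenocyte and macrophage markers (the last mostly Lyz2) each exceeded that of the muscle stem cell markers, though the lists differ in how abundant their genes are. Markers of 3 other cell types were near 0: over the wild-type libraries neutrophil markers summed to between 1.70 and 4.13 TPM, lymphocyte markers to between 1.45 and 2.52 TPM and adipocyte markers to between 0 and 0.846 TPM, with Ly6g and Mmp8 at 0 in all of them.

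**Figure D3:**
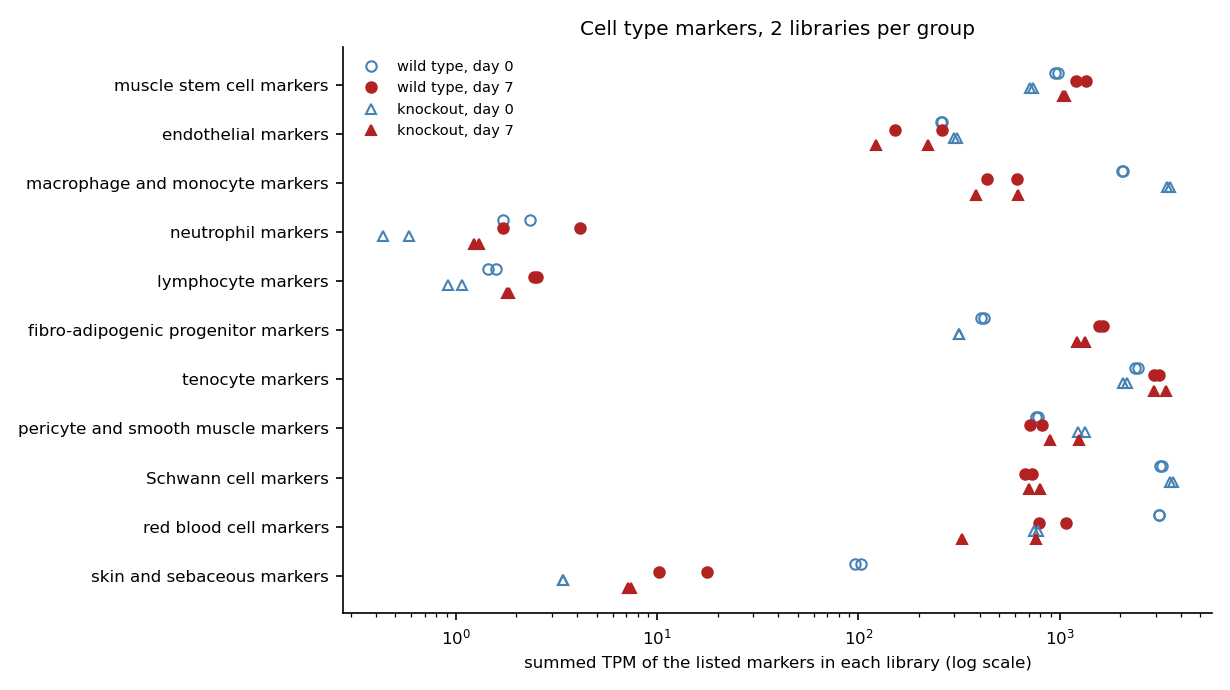
Summed TPM of the markers of 11 cell types, all but adipocytes, in each library on a log axis, for wild type (circles) and knockout (triangles) at day 0 (open blue) and day 7 (filled red), 2 libraries a group. Schwann cell, red blood cell and skin markers lie lower at day 7 in wild type, and fibro-adipogenic progenitor markers lie higher. Most of the macrophage sum at day 0 is Lyz2.

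In 2 further lists the medians were small. Autophagy and lysosome genes had 17 of 31 lower and 7 higher (median -0.22), with Map1lc3a, an autophagosome coat protein, at 311 and 314 CPM at day 0 and 121 and 123 CPM at day 7 (log2 fold change -1.35, SE 0.0773, adjusted p = 1.57e-06) and the cargo receptor Sqstm1 at 2869.6 and 3005 CPM at day 0 and 1359 and 1358 CPM at day 7 (log2 fold change -1.11, SE 0.0517, adjusted p = 5.06e-07). Targets of p53 had 8 of 23 higher and 9 lower (median -0.22, positive in TPM).

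The knockout libraries, which share no sample with the wild type, were set beside it. Of the 15672 genes, 5981 were called in both genotypes, 5616 of them with the same sign and 365 with opposite signs, and the log2 fold changes correlated across genes (Pearson's r 0.538, Spearman's rho 0.618; genes are not independent replicates). The size of the response differed between genotypes in 3887 genes (24.8%), more positive in the knockout in 2012 (12.8%) and more negative in 1875. The count of 3887 genes fell to 2183 without the second knockout day 0 library, to 2248 and 2278 without the first and the second wild-type day 0 library, and to 2141 in a fit of all 12 libraries. The median of mitosis genes was 4.63 in the knockout and 2.73 in wild type, and 42 of 66 genes were called more positive in the knockout against 3 more negative. Mitosis genes summed to 582 and 557 TPM at day 0 and 2051 and 1927 TPM at day 7 in wild type. In the knockout they summed to 430 and 415 TPM at day 0 and 1998 and 2025 TPM at day 7. The knockout was thus lower at day 0, and the genotypes overlapped at day 7. Sarcomere medians were 4.35 and 3.67, with 21 of 51 called more positive. Genes of cytosolic ribosomal proteins had 75 of 78 called more positive in the knockout, with medians of 0.89 and 0.01. Their summed level in wild type was 42416 and 40493 TPM at day 0 and 52386 and 50341 TPM at day 7. In the knockout it was 25730.0 and 21634 TPM at day 0 and 43425 and 44067 TPM at day 7, lower than in wild type on both days. All 14 chemokine genes with a called difference were more positive in the knockout, where the list's median was 1.72. The mitochondrially encoded genes had 0 of 12 called, with medians of -1.32 and -1.40.

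The genes with the smallest adjusted p in the difference between genotypes include reversals. Nr1d1 and Crabp1, which fell in wild type, rose in the knockout by 1.65 and 1.60 on the log2 scale from lower levels at day 0. Dbh, the enzyme that makes noradrenaline, was at 5.70 and 6.56 CPM at day 0 and 20.5 and 17.9 CPM at day 7 in wild type and at 26.9 and 25.1 CPM at day 0 and 3.08 and 4.65 CPM at day 7 in the knockout (difference of the log2 fold changes -4.41, SE 0.281, adjusted p = 7.37e-05). Akr1c14, an aldo-keto reductase, was at 24.1 and 24.4 CPM at day 0 and 42.2 and 38.5 CPM at day 7 in wild type and at 35.8 and 33.9 CPM at day 0 and 5.10 and 5.11 CPM at day 7 in the knockout (difference -3.50, SE 0.143, adjusted p = 1.27e-05). Both rose in wild type and fell in the knockout. Chrna1, whose wild-type values are given above, was at 25.2 and 25.9 CPM at day 0 and 393 and 435 CPM at day 7 in the knockout, a log2 fold change of 4.02 against 1.90. Spp1, the secreted phosphoprotein osteopontin, was at 74.7 and 77.9 CPM at day 0 and 154 and 145 CPM at day 7 in wild type and 42.1 and 38.8 CPM at day 0 and 321 and 326 CPM at day 7 in the knockout (difference 2.03, SE 0.0961, adjusted p = 2.34e-05). Lrrc17, a secreted leucine-rich repeat protein, had log2 fold changes of 2.00 and 4.08 in wild type and knockout. These 3 rose in both genotypes and by more in the knockout. Abca8a, a lipid transporter, fell in both, by a log2 fold change of -1.27 in wild type and -3.18 in the knockout (difference -1.91, SE 0.0910, adjusted p = 2.34e-05).

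**Figure D4:**
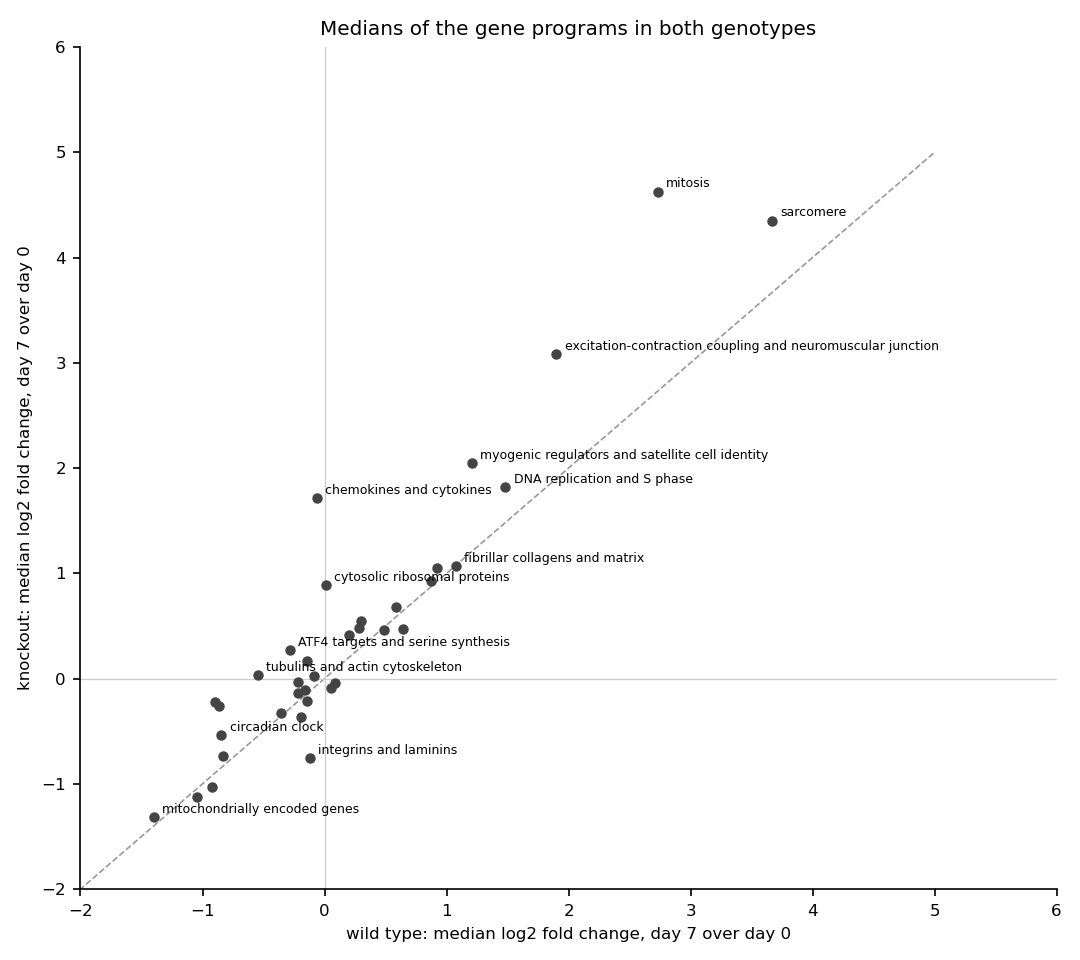
Median log2 fold change from day 0 to day 7 of each of the 36 gene programs in wild type (horizontal) and knockout (vertical), with the line of equal values dashed. Sarcomere, mitosis and excitation-contraction programs lie above the line, and the mitochondrially encoded genes lie at the lowest end in both genotypes.

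**Figure D5:**
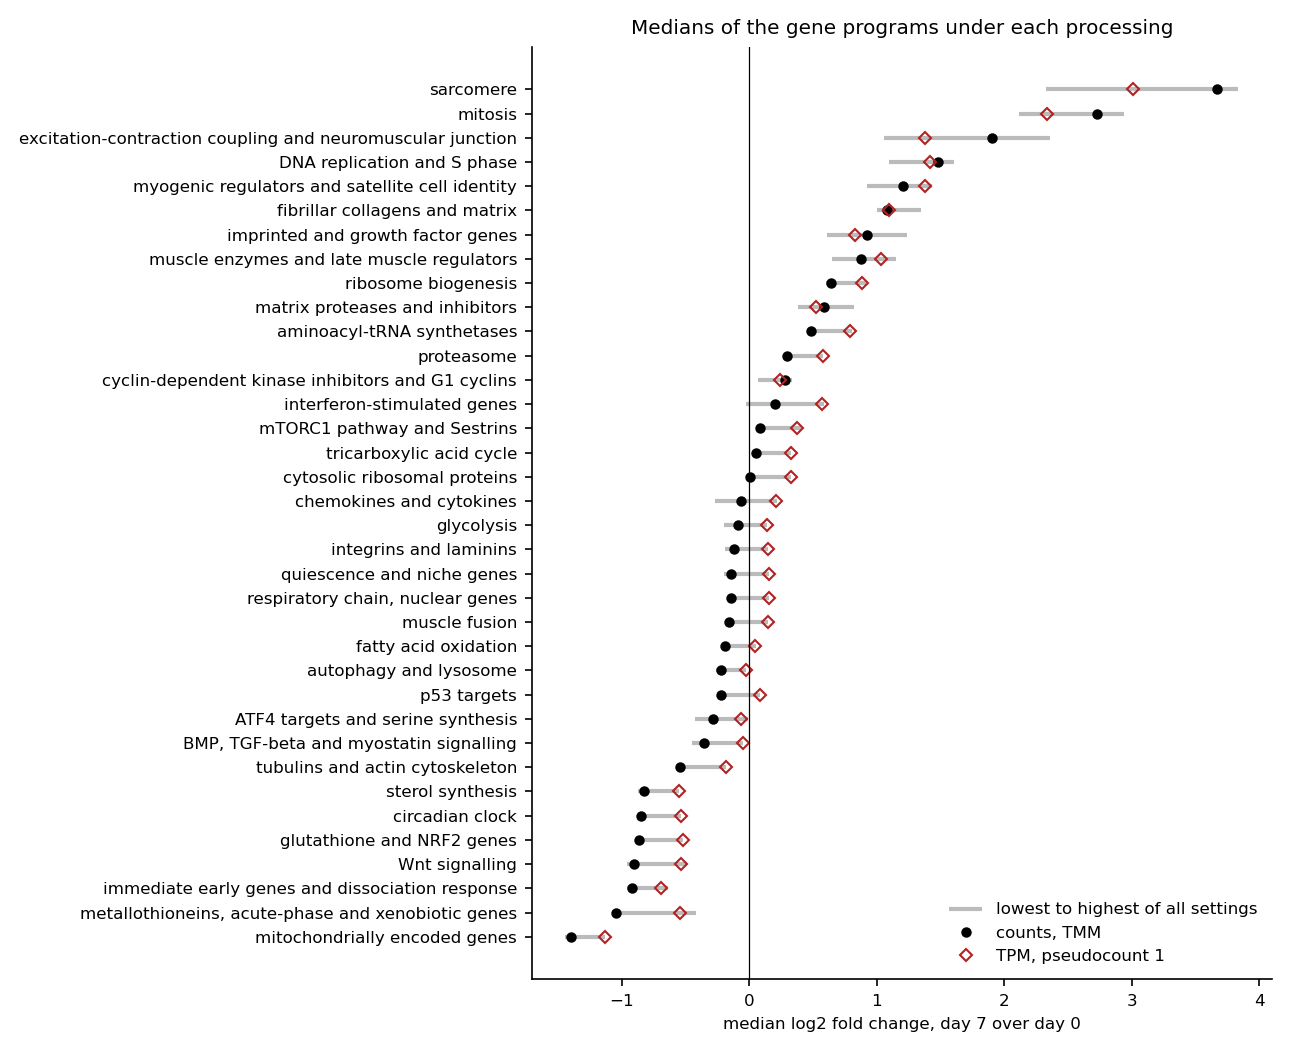
Median log2 fold change of each gene program in wild type as reported (black point), from TPM with a pseudocount of 1 (open red diamond), and the range over all settings tried (grey line). Programs at the upper and lower ends keep their sign, and several programs with a small negative median turn positive in TPM, among them muscle fusion (from -0.16 to 0.14).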

How the data were processed

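RNA of sorted muscle stem cells was made into libraries with SMART-Seq v4 and Nextera XT and sequenced with single-end reads of 76 bases, per the labels' protocols. The authors deposited estimated counts and TPM (transcript levels corrected for length and depth) per gene, and a table of regularised log2 values corrected for an unnamed batch. Kallisto 0.46.1 and the builds mm10 and GRCm38.p6 are named in the submitters' processing notes, without their roles. Read strand was not given in the sources used here, so overlapping and antisense genes cannot be separated.

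Estimated counts were rounded and filtered with filterByExpr, and the 8 libraries of days 0 and 7 were fitted together in edgeR 4.0.16 (robust quasi-likelihood, TMM scaling; 4 residual degrees of freedom). The contrasts were day 7 against day 0 in wild type and its difference from that of the knockout, with Benjamini-Hochberg adjustment over 15672 genes and calls at an adjusted p under 0.05. A fold against a day without counts uses a floor of 3 counts in each library of that day.

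The members of 36 program lists and 12 cell type lists, and the rule for named genes, were chosen with earlier results of these data known. The rule took the 15 largest changes each way among called genes of at least 20 CPM without overlap, the 10 largest gains and losses in TPM, 3 called members of each list with the first 2 of it, the Sestrins, and 5 genes each way by the difference between genotypes; the text gives part of these, and some are not reported here. Outside the rule, Actc1, Ccnd1, Ccnd2, Cdh15, Dlk1, Fmod, Gins4, Gpx8, Grb10, Gsr, Klf2, Klf6, Lyz2, Mbp, Mcm6, Meox2, Mybph, Myf5, Myod1, Npas2, Orc1, Pcna, Pdlim3, Pttg1, Slbp, Sqstm1, Top2a, Tpm1 and Tpm2 were named after their values were seen. Positions come from GENCODE M21 on GRCm38 (15565 of 15672 tested identifiers found) and promoters from RefSeq. In simulated counts where 200 genes were given a log2 change of 2, edgeR recovered 185, with 22 false among 207 calls. Alternatives used DESeq2 1.42.0 and limma 3.58.1 in R 4.3.3, other filters and scalings, other sets of libraries, the replicate number as a block, and each library left out in turn.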

Additional observations from a re-analysis of the deposited data

Results flagged for a closer look

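The change from day 0 to day 7 differed between wild type and knockout, in a test of the difference itself (edgeR, adjusted over all genes), in 96 of the genes looked up by name, which is why they are listed. Each value is the log2 fold change in the knockout minus that in wild type.

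Among genes called higher in wild type, the response was larger in the knockout for Chrna1 2.12, Spp1 2.03, Lrrc17 2.08, Col1a1 1.84, C1qtnf3 1.73, Actc1 1.32, Mest 0.89, Top2a 1.45, Myog 1.19, Cdh15 1.30, Itm2a 1.03, Cthrc1 2.13, Cxcl9 2.28, Cdk1 1.62, Gm7325 3.18, Ccl8 3.28, Tmem8c 0.92, Myf5 0.92, Col1a2 0.78, Ccna2 1.88, Mybph 1.52, Mmp3 2.58, Chrng 2.15, Mmp2 0.49, Nuf2 1.22, Cdkn1c 0.39, Col3a1 0.64, Myl1 1.77, Acta1 1.30, Chrnd 1.89 and Myf6 2.38. It was smaller or opposite in the knockout for Akr1c14 -3.50, Dbh -4.41, Npas2 -2.75, Adam12 -2.21, Lamb1 -0.96, Wnt4 -1.67, Rb1 -1.14, Grb10 -0.57, Ltbp2 -1.43, Actb -0.43, Clock -1.05, Arntl -1.10, Tsr1 -0.47, Ifit1 -0.93, Myod1 -0.63, Klf6 -0.33, Dlk1 -0.66, Nop2 -0.37 and Iars -0.45.

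Among genes called lower in wild type, the difference was positive, a weaker fall or a rise in the knockout, for Nr1d1 2.89, Crabp1 5.55, Dbp 4.30, Apod 0.82, Hsd11b1 1.42, Wnt5a 2.68, Wif1 2.92, Cxcl14 1.51, Sqstm1 0.75, Gstm1 0.75, Nfe2l2 0.76, Gadd45b 0.82, Ciart 2.22, Rspo3 3.47, Slc7a11 2.64, Map1lc3a 0.78, Fdft1 1.43, Ddit3 0.90, Slbp 0.55, Myl9 0.48, Dcn 0.68, Pdlim3 0.50, Id4 0.90, Tpm1 0.64, Atf4 0.41, Ccnd2 0.44, Tagln 0.40, Trib3 1.51, Pttg1 0.53, Hspa1b 0.72, Slc2a1 0.44, Fth1 0.32, Idi1 0.58, Fmod 0.38, Hspa1a 0.59 and Hes1 0.41. It was negative, a stronger fall in the knockout, for Abca8a -1.91, Chrdl2 -0.76, Fos -0.50, Cntf -1.90 and Sesn2 -0.73. Sesn2 is one of the genes knocked out, so its value there is read from remaining transcripts, at 5.66 and 7.26 CPM at day 0 and 2.37 and 1.96 CPM at day 7.

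Among genes not called in wild type the difference was Chrnb1 0.77, Sesn1 -0.96 and Pax7 0.74. Sesn1 is also one of the genes knocked out. Its knockout value is read from remaining transcripts, at 47.6 and 47.3 CPM at day 0 and 28.6 and 23.0 CPM at day 7. The keratins Krt17 and Krt25 had fitted differences of 15.76 and 14.80; both had no counts in the knockout at day 0, so these values depend on the prior count and are no measure of size.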

How the results depend on the processing

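The count of 8456 genes called in wild type (4367 higher, 4089 lower) ranged from 7468 with all 12 libraries to 9035 with the 4 wild-type libraries alone over the refits that left out no single library, and was 3799 (1725 higher and 2074 lower) where a change of at least 2-fold was required. In TPM 2475 (pseudocount 1) or 2444 (pseudocount 0.1) genes were lower. The difference between genotypes, 3887 genes (2012 more positive and 1875 more negative in the knockout), was called in 2141 (966 and 1175) with all 12 libraries, in 1488 (816 and 672) with the required fold, and in 2299 (1031 more positive) in TPM without a filter; more positive genes were 1182 and 1132 in TPM with pseudocounts of 1 and 0.1, and more negative ones 1139 in the batch-corrected values. The causes were not tested.

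Leaving out each library in turn gave 6573 (without the second wild-type day 0 library) to 9144 calls in wild type, 3426 to 4700 higher and 3147 to 4455 lower, and 2183 (without the second knockout day 0 library) to 4404 for the difference, 1143 (without the first wild-type day 0 library) to 2143 more positive and 1019 (without the second knockout day 0 library) to 2261 more negative. An arm with 1 library was assumed to vary like the others. The difference could not be fitted from wild-type libraries alone. With the replicate number as a block 8115 genes were called in wild type and 3341 for the difference. The numbers are not known to pair the samples: deviations of same-numbered libraries correlated between -0.15 and 0.04.

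Of 146 called genes looked up by name, 35 had a fold change that moved by over 1.5 times in limma fits of TPM or batch-corrected values. It moved that far in 6 when 1 library was left out, among them Myh4 (5.01 without the second wild-type day 7 library), Trim63 (5.90 without the first wild-type day 0 library) and Krt71 (-10.71 and -13.72 without the first and the second wild-type day 7 library). Of 152 genes looked up, 3 that had not passed the test changed sign: Myh2 went from -1.87 to 0.21 without the first or the second wild-type day 7 library, Keap1 was at -0.0084 in the batch-corrected values and between -0.10 and 0.19 over libraries left out, and Sesn1 between -0.074 and 0.23. The medians of muscle fusion, integrins and laminins, quiescence, glycolysis, nuclear respiratory chain, fatty acid oxidation, p53 targets, chemokines and endothelial and pericyte markers turned positive in TPM. The number of libraries, 2 a group, limits the precision of every value.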
